A study of Mus musculus with 8 samples.

Results

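The mitochondrial ribosomal protein genes of mouse pancreas, those with Mrpl or Mrps symbols, were compared between wild type and Sel1L knockout animals. The members were all genes whose platform symbol began with Mrpl or Mrps followed by a number, pseudogene symbols left out, and that had a feature (the summarised signal of one set of probes) naming no other gene. This gave 74 of the 18820 genes tested, 48 of them coding for proteins of the large subunit and 25 for proteins of the small subunit. The remaining gene, Mrps36, carries the family's name but its protein is now known as a component of the oxoglutarate dehydrogenase complex.

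The series holds 8 whole-transcript arrays of pancreas, 4 labelled wild type and 4 labelled inducible Sel1L1 knockout (Sel1L knockout below). The background is given as C57BL/6J, with the floxed allele made in C57BL/6N ES cells. In both groups both copies of Sel1l had exon 6 flanked by loxP sites (fl/fl), and mice of both groups received tamoxifen (5 mg/ml in sunflower oil, 5 μl per g, daily for 3 days) at an age of 8 to 20 weeks. The knockout mice were fl/fl;ERCre+, carrying a Cre recombinase fused to the estrogen receptor under an actin promoter, which is active in most tissues, and the controls were fl/fl;ERCre- littermates. Cre activity and the loss of Sel1L therefore cannot be told apart, nor can effects of losing Sel1L in pancreas and in other organs. The labels number the arrays 1 to 4 in each group without saying that each number is an animal. The p-values thus set the group difference against the spread among these arrays, which may be technical and may leave out variation between animals.

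Sel1L is the adaptor of the Hrd1 ubiquitin ligase, which removes misfolded proteins from the endoplasmic reticulum. The mitochondrial ribosome is a separate machine inside the mitochondrial matrix. It translates the few messages of mitochondrial DNA, all of them for subunits of the respiratory chain and the ATP synthase, while all of its own proteins are encoded in the nucleus and imported. Many of these proteins have counterparts in bacterial ribosomes and the others exist only in mitochondria. Acinar cells, the enzyme-secreting cells that make up most of the pancreas, depend on mitochondrial ATP for protein synthesis and secretion.

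Sel1l itself was at 12.37, 12.38, 12.38 and 12.39 in the wild type arrays and at 11.68, 11.66, 11.70 and 11.45 in the knockout arrays, on the log2 scale of the deposited signal. The groups did not overlap, and Sel1l fell by 0.76 (SE 0.0788, limma adjusted p = 0.000196; two-sided exact permutation test p = 0.0286, which is as small as 4 against 4 arrays allow). Array medians lay between 4.94 and 4.99 in wild type and between 5.00 and 5.05 in knockout, so every knockout median was the higher. Among acinar markers, the level of Ctrb1 was 14.08 and that of Cpa1 13.93 in wild type, close to the array maxima of 14.29 to 14.37. Wild type replicate 2 stood apart from the other arrays in its macrophage markers, with a mean over 9 genes of 6.17 where the rest of the wild type arrays lay at 7.76 to 8.45. Its stellate cell and fibroblast markers were also lower, with a mean over 8 genes of 7.10 where those arrays lay at 8.26 to 8.65. Counts called without this array are given below for the family, its subunits and the lists where they change.

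On the deposited values, 30 of the 74 mitochondrial ribosomal protein genes rose in the knockout arrays and 2 fell at a Benjamini-Hochberg adjusted p under 0.05, while 42 did not pass the test. Of all genes tested, 28.7% were called, 16.1% higher and 12.6% lower. The share of members called higher was 40.5%. The median difference, knockout minus wild type on the log2 scale, was 0.24 over the members and -0.04 over all genes, and 62 of the 74 members lay above 0. Most differences were small: the members ranged from -0.46 to 0.84, and the widest was a 1.79-fold change. The groups did not overlap for 29 members that were higher and 3 that were lower in the knockout, against 17.6% and 14.6% of all genes. Without wild type replicate 2, the test called 30 members higher and 1 lower, against 25.4% of all genes called, 14.6% higher and 10.8% lower. Of the rises, 27 were the same genes; Mrpl21, Mrpl36 and Mrpl58 were lost and Mrps5, Mrps14 and Mrps18c gained. By level, 8 of 21 members between 7 and 8 (38.1%) and 11 of 26 from 8 upward (42.3%) then rose. Of all genes in these classes 27.2% and 23.9% rose.

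These counts depended strongly on how the arrays were scaled. After quantile normalization 10 members rose and 7 fell, against 9.64% and 12.8% of all genes (22.5% called). After cyclic loess 12 rose and 7 fell, against 10.6% and 11.4% of all genes (22.0% called). With each array centred on its median, 21 rose and 2 fell, against 12.0% and 21.1% of all genes (33.1% called). A trend and robust variance changed little, with 33 higher and 2 lower, against 17.2% and 12.9% of all genes (30.1% called). Of the members' calls, the share that was higher was 93.8% as deposited, 58.8% with quantile normalization, 63.2% with cyclic loess and 91.3% with centring (all genes 56.0%, 42.9%, 48.1% and 36.3%). In the same order the members' median was 0.24, 0.08, 0.10 and 0.16, beside medians of all genes of -0.04, -0.05, -0.02 and -0.11. No member was called higher under one of these scalings and lower under another.

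**Figure D1:**
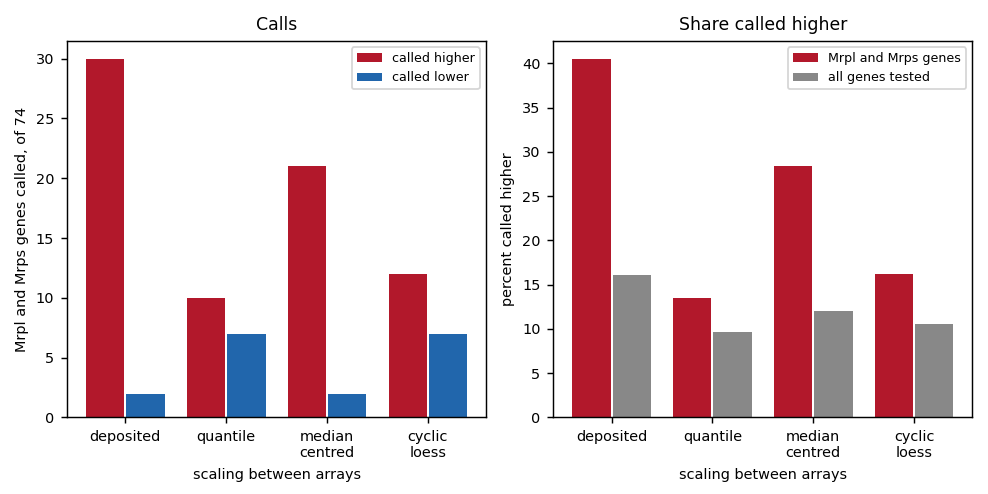
Left, the number of the 74 genes called higher (red) or lower (blue) at a limma adjusted p under 0.05 as deposited and after 3 rescalings; right, the percent called higher among the 74 genes (red) and among all 18820 genes tested (grey). The members' share of 40.5% on the deposited values stood beside 16.1% of all genes, and their share of 13.5% after quantile normalization beside 9.64%.

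The background also varied with signal level. Among the 9410 genes whose mean level lay above the median, 44.4% were called when these genes were tested alone, 32.0% higher and 12.4% lower, and 33 of the 71 members in this set rose and 2 fell. The median difference in the set was 0.13 for all genes and 0.24 for the members. Read by level in the fit of all genes, 11 of 27 members with a mean under 7 rose (40.7%, all genes 10.7%), 7 of 21 between 7 and 8 (33.3%, all genes 30.4%) and 12 of 26 from 8 upward (46.2%, all genes 26.7%). With all arrays, the members in the middle class thus lay close to their background. Without wild type replicate 2 their share was 38.1%, beside 27.2% of all genes in that class. The median SD of the members was 0.12 in wild type and 0.11 in knockout. For all genes above the median level it was 0.15 and 0.11, and for the members in that set 0.12 and 0.11.

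**Figure D2:**
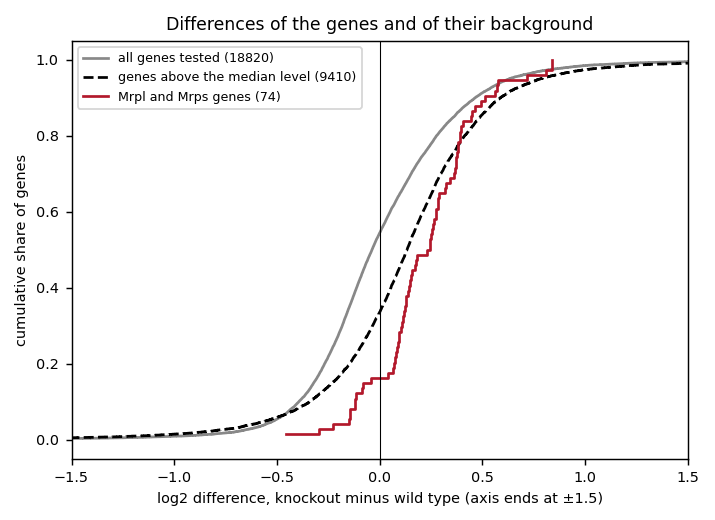
Cumulative share of genes (vertical axis) by log2 difference, knockout minus wild type (horizontal axis, ending at ±1.5), on the deposited values. Through the middle of the range the curve of the 74 members (red, median 0.24) lay to the right of that of the 9410 genes above the median level (dashed, median 0.13) and of all 18820 genes (grey, median -0.04), and it met them near the top, since no member exceeded 0.84.

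The members that held under every scaling were few. On the deposited values and after each of the 3 rescalings, 9 members were called higher, namely Mrps27, Mrps18b, Mrps28, Mrpl48, Mrpl23, Mrpl27, Mrpl33, Mrps23 and Mrpl40, and 2 were called lower, Mrpl42 and Mrps21. That is 12.2% of the members higher and 2.7% lower, where 8.86% and 8.49% of all genes were called so under all 4 scalings. The share of members higher under all 4 was thus near the background. Another 9 of the 30 rises were called on the deposited values only: Mrpl21, Mrpl9, Mrps30, Mrpl34, Mrps18a, Mrps33, Mrpl36, Mrpl58 and Mrpl39.

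**Figure D3:**
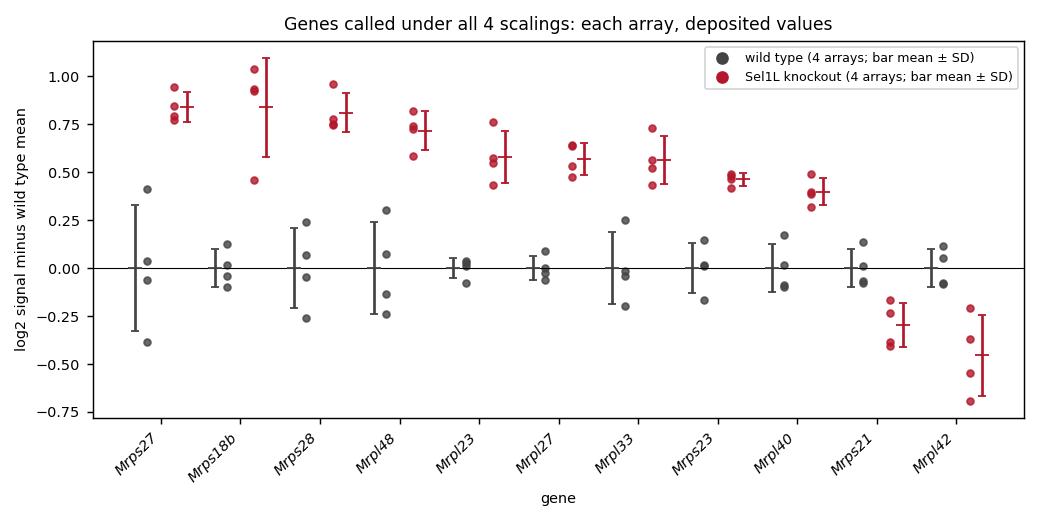
Log2 signal minus the wild type mean (vertical axis) of the 11 genes called under all 4 scalings, each point 1 array of the deposited values and each bar the mean ± SD of 4 arrays. For the 9 genes on the left every knockout array (red) lay above every wild type array (grey), and for Mrps21 and Mrpl42 every knockout array lay below.

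Counts by subunit, origin and site rest on the deposited values. The family's rises fell from 30 to 10 after quantile normalization. Of all genes 16.1% were called higher as deposited, and of those above the median level 27.9%. In the small subunit, which binds the message and reads its codons, 9 of 25 members rose (36%) and 1 fell, with a median difference of 0.27. Without wild type replicate 2 the counts were 12 and 0. The widest differences of all members were found here. Mrps27, a mitochondria-specific protein with pentatricopeptide repeats, was at 5.48, 6.28, 5.90 and 5.81 in wild type and at 6.71, 6.64, 6.66 and 6.81 in knockout. The wild type arrays were spread, with replicate 1 lowest, and the knockout arrays were close together and all higher. The difference was 0.84 (SE 0.147, adjusted p = 0.00313), a 1.79-fold rise from 5.87 ± 0.327 to 6.70 ± 0.0778 (SD, n = 4 each).

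Mrps18b is 1 of 3 mammalian relatives of the bacterial ribosomal protein S18, with Mrps18a and Mrps18c. It was at 8.23, 8.29, 8.46 and 8.35 in wild type and at 8.79, 9.26, 9.25 and 9.36 in knockout. All knockout arrays were higher, with replicate 1 nearest to wild type. The rise was 0.84 (SE 0.127, adjusted p = 0.00145). Its relatives moved less. Mrps18a, whose protein sits in the large subunit despite its name, rose by 0.28 (SE 0.0888, adjusted p = 0.0388), a call made on the deposited values only. It also missed the threshold without any 1 of wild type replicates 1, 3 and 4 (adjusted p = 0.0752, 0.0508 and 0.081) or knockout replicates 2, 3 and 4 (0.0987, 0.0787 and 0.0997). The difference of Mrps18c was 0.29 (SE 0.099, adjusted p = 0.055) with non-overlapping groups, and it passed without wild type replicate 2 (adjusted p = 0.0298). Whether the 3 differences differ from one another was not tested.

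Mrps28, related to the bacterial protein S1, was at 6.72, 6.90, 6.40 and 6.61 in wild type and at 7.40, 7.41, 7.43 and 7.61 in knockout, which did not overlap. It rose by 0.81 (SE 0.112, adjusted p = 0.000941), or 1.75-fold. Mrps23, found only in mitochondrial ribosomes, was at 7.48, 7.67, 7.80 and 7.66 in wild type and within 8.07 to 8.14 in knockout, a rise of 0.46 (SE 0.0831, adjusted p = 0.00347). Mrps12, the protein of the decoding centre, rose by 0.51 (SE 0.115, adjusted p = 0.00997), from 5.42 ± 0.226 to 5.93 ± 0.0817 (SD, n = 4 each). After quantile normalization Mrps12 missed the threshold (0.37, adjusted p = 0.0586).

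Mrps35 rose by 0.44 (SE 0.115, adjusted p = 0.0183), with groups that overlapped: knockout replicate 1 and wild type replicate 2 were both at 6.70. It missed the threshold without knockout replicate 2 (adjusted p = 0.0503) or knockout replicate 4 (0.0534) and after quantile normalization (0.130) or cyclic loess (0.0918). Mrps10 rose by 0.41 (SE 0.092, adjusted p = 0.0103), but not after cyclic loess (adjusted p = 0.0603), and the other small-subunit genes that rose were Mrps26 (0.34) and Mrps33 (0.28). The 9 small-subunit proteins without a bacterial counterpart had differences above 0 on the deposited values, from 0.13 to 0.84, and 5 of them rose; that of Mrps25 was -0.03 after quantile normalization. Of the 16 with a counterpart, 4 rose (25%, near the 27.9% of genes above the median level) and 1 fell, with a median of 0.15. Without wild type replicate 2 these counts were 7 and 0. The difference between these classes was not tested.

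**Figure D4:**
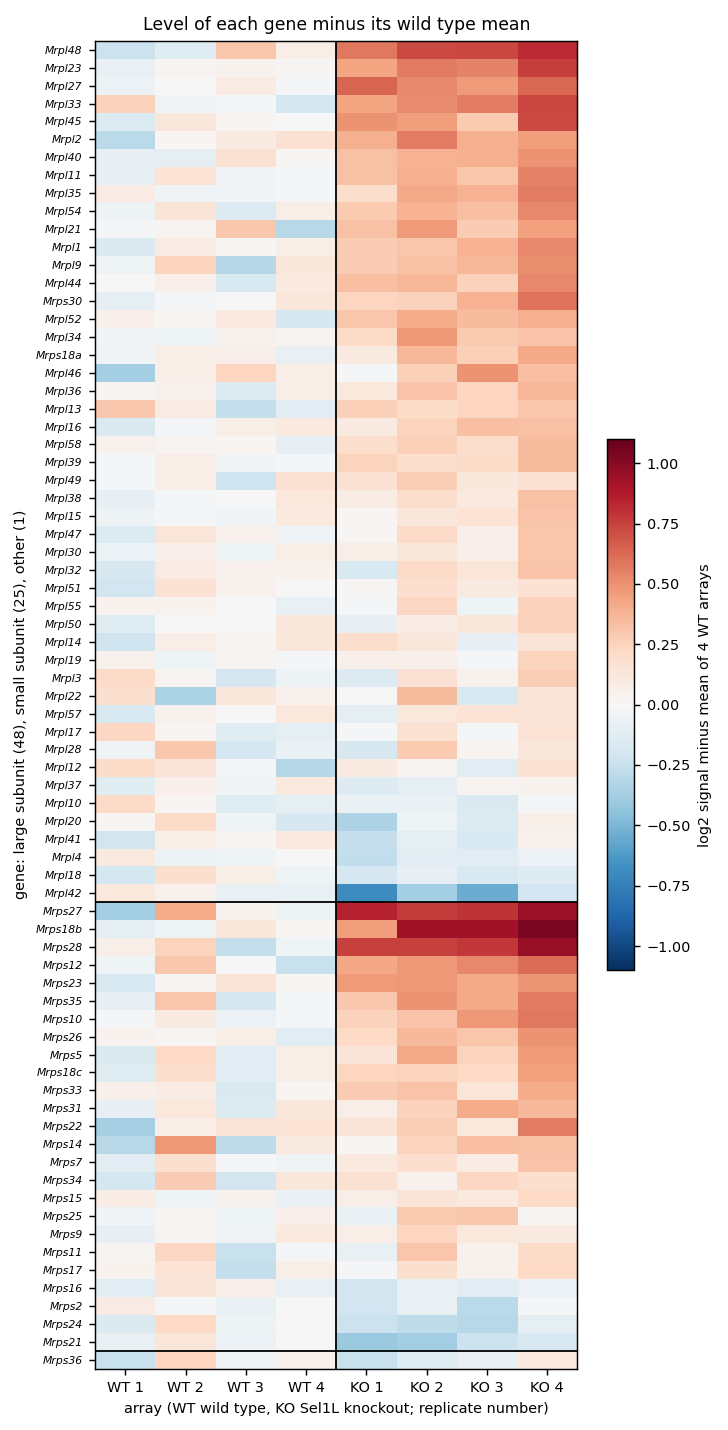
Colour gives the log2 signal of each gene (rows) in each array (columns, 4 wild type then 4 knockout) minus the gene's mean over the wild type arrays, with large-subunit genes above, small-subunit genes below and Mrps36 last. Most rows turn red in the knockout columns, most strongly in replicate 4, while Mrpl42 and Mrps21 turn blue.

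In the large subunit, which joins amino acids and releases the new chain, 21 of 48 members rose (43.8%) and 1 fell, with a median difference of 0.21. The background was 16.1% higher for all genes and 27.9% for genes above the median level. Leaving out wild type replicate 2 gave 18 large-subunit members higher and 1 lower. To the central protuberance, where the large subunit meets the small one, 7 members were assigned from general knowledge, and the assignment may be incomplete. Of these 7, 4 were called higher and 0 lower, counting Mrps30, whose features went opposite ways. Mrpl48 was at 7.71, 7.81, 8.25 and 8.02 in wild type and at 8.53, 8.67, 8.68 and 8.77 in knockout. All knockout values lay above the wild type values, and Mrpl48 rose by 0.72 (SE 0.121, adjusted p = 0.00251). Mrpl40 rose by 0.40 (SE 0.0858, adjusted p = 0.00831), from 8.32 ± 0.125 to 8.72 ± 0.0712 (SD, n = 4 each). Mrpl52 rose by 0.36. Mrps30, a large-subunit protein despite its name, was called higher on the feature used (0.37), but the mean of its features was -0.08 (adjusted p = 0.496). The differences of Mrpl46 (0.27), Mrpl38 (0.18) and Mrpl18 (-0.15) did not pass the test.

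At the exit tunnel, through which the growing chain leaves the ribosome, 4 of 7 members rose and 0 fell. Mrpl23 was at 9.33, 9.43, 9.45 and 9.42 in wild type and at 9.84, 9.98, 9.95 and 10.17 in knockout. The wild type arrays lay within a narrow range and every knockout array was higher, a rise of 0.58 (SE 0.0866, adjusted p = 0.00138). Mrpl45, which tethers the ribosome to the inner membrane next to the insertase Oxa1l, rose by 0.49 (SE 0.106, adjusted p = 0.00852). After quantile normalization its difference was 0.33 (adjusted p = 0.0565). Mrpl44 and Mrpl39 rose by 0.37 and 0.24, while Mrpl47, Mrpl22 and Mrpl17 lay between 0.07 and 0.15, did not pass and were below 0 after quantile normalization (-0.01, -0.04 and -0.07).

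Near the peptidyl transferase centre, where peptide bonds form, and among proteins that join late in assembly, 4 of 6 members rose (3 without wild type replicate 2, Mrpl36 being lost). Mrpl27 was at 7.26, 7.32, 7.41 and 7.30 in wild type and at 7.97, 7.85, 7.80 and 7.96 in knockout, which gave the smallest p of all members (0.57, SE 0.0765, adjusted p = 0.000777). Mrpl2 rose by 0.45 (SE 0.108, adjusted p = 0.0133), Mrpl35 by 0.39 and Mrpl36 by 0.26. Mrpl36 lay at the threshold (adjusted p = 0.0499), and Mrpl16 just outside it with a like difference (0.25, adjusted p = 0.063). The difference of Mrpl3 was 0.09. After quantile normalization or cyclic loess Mrpl2 (0.0756 and 0.0556) and Mrpl35 (0.0911 and 0.0836) missed the threshold.

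The stalks of the large subunit, which receive translation factors and move the outgoing tRNA, held 4 members. Mrpl11 rose by 0.39 (SE 0.0887, adjusted p = 0.0102) and Mrpl1 by 0.38 (SE 0.0902, adjusted p = 0.0134). Both missed the threshold after quantile normalization (0.0905 and 0.123) and after cyclic loess (0.0723 and 0.0902). Mrpl12, whose protein also binds the mitochondrial RNA polymerase, was at 8.47, 8.41, 8.24 and 7.96 in wild type and at 8.37, 8.30, 8.14 and 8.43 in knockout, values that overlapped fully (difference 0.04, adjusted p = 0.815). Mrpl10, its partner in the stalk, had a difference of -0.08 (adjusted p = 0.518). Among members nearest to 0 were also Mrpl37 (-0.04) and Mrpl28 (0.07). The signs of Mrpl12 and Mrpl28 turned with the scaling: after quantile normalization, centring and cyclic loess they were -0.08, -0.04 and -0.09 for Mrpl12 and -0.09, -0.01 and -0.08 for Mrpl28.

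Among large-subunit members assigned to none of these sites, Mrpl33 rose by 0.56 (SE 0.109, adjusted p = 0.00516), from 5.91, 5.62, 5.64 and 5.46 to 6.09, 6.18, 6.23 and 6.39. The lowest knockout array lay above the highest wild type array, which was replicate 1. Mrpl54, Mrpl21, Mrpl9, Mrpl34 and Mrpl58 rose by 0.25 to 0.38. Mrpl58 encodes a peptidyl-tRNA hydrolase that became part of the ribosome. Mrpl32, whose maturation by a mitochondrial protease controls ribosome assembly, had a difference of 0.12 (adjusted p = 0.434). Among large-subunit proteins with a bacterial counterpart 12 of 30 rose (40%), and among those without one 9 of 18 rose (50%) and 1 fell. These rises numbered 10 and 8 without wild type replicate 2.

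**Figure D5:**
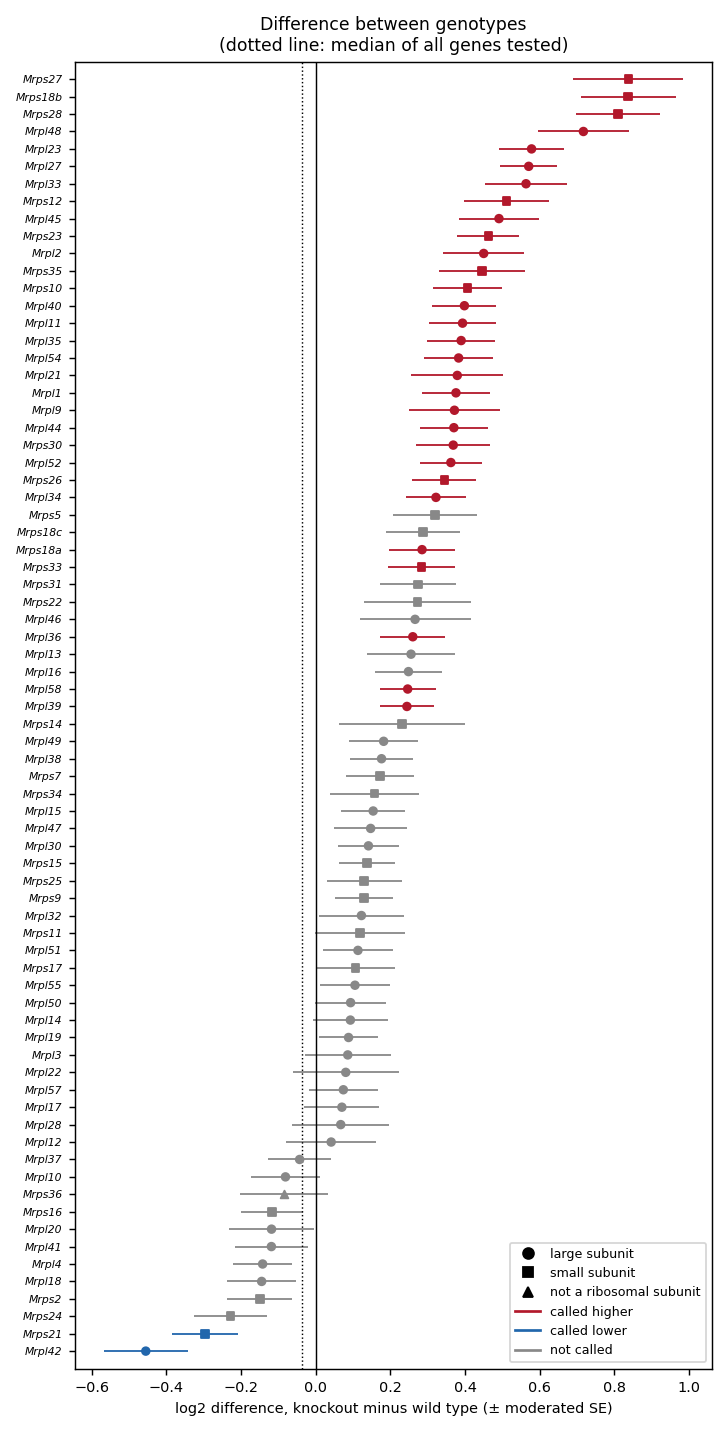
Log2 difference, knockout minus wild type, with its moderated standard error, for all 74 genes in order of size on the deposited values. Red marks genes called higher, blue called lower and grey not called; the dotted line is the median of all genes (-0.04), and the members run from Mrpl42 at -0.46 to Mrps27 at 0.84.

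Both members that fell did so under all 4 scalings. Mrpl42 was at 7.02, 6.96, 6.83 and 6.82 in wild type and at 6.22, 6.54, 6.36 and 6.70 in knockout. All knockout arrays were lower, though replicate 4 came close to wild type, and Mrpl42 fell by 0.46 (SE 0.112, adjusted p = 0.0149). Mrps21, a relative of the bacterial protein S21, was at 10.29, 10.50, 10.30 and 10.38 in wild type and at 9.96, 9.99, 10.14 and 10.20 in knockout. It fell by 0.30 (SE 0.0879, adjusted p = 0.0316). Mrps21 missed the threshold when wild type replicate 2 (adjusted p = 0.0709) or 4 (0.0585) was left out and without knockout replicate 1 (0.0824), 2 (0.0855) or 3 (0.0562). Each of these omissions left 1 member called lower instead of 2. Mrpl4, Mrpl18, Mrps2, Mrps16 and Mrps24, not called on the deposited values (-0.12 to -0.23), were called lower after at least 1 rescaling. Mrps36, the gene outside the ribosome, lay below the median of every array, at 4.16 ± 0.2 and 4.08 ± 0.147 (SD, n = 4 each), and its difference of -0.09 did not pass (adjusted p = 0.596).

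For 12 members the platform held more than 1 single-gene feature, and the one with the highest mean was used. Probes of such features may read near-identical copies in the genome, so their values are uncertain. The features of Mrps30 went opposite ways when every feature was tested by itself: the one used was higher in knockout by 0.37 (adjusted p = 0.036) and the other lower by 0.53 (difference -0.53, adjusted p = 0.00813). The mean of both gave -0.08 (adjusted p = 0.496), so no direction of Mrps30 rests on the gene as a whole. The call of Mrps30 was also lost without wild type replicate 1 (adjusted p = 0.0525) or knockout replicate 3 (0.0579) or 4 (0.0516).

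Mrps10 had 3 features, with differences of 0.41 (adjusted p = 0.018), 0.32 (0.0758) and -0.02 (0.892), and the mean of the 3 missed the threshold (0.23, adjusted p = 0.0916). The features of Mrpl27 differed in size, 0.57 for the one used and 0.22 (adjusted p = 0.148) for the other. Both features of Mrpl42 were lower, by 0.46 and 0.33 (differences -0.46 and -0.33), of which the second did not pass (adjusted p = 0.114). The features of Mrpl23 gave 0.58 each and those of Mrps33 gave 0.28 and 0.27. For Mrps5 the feature used did not pass in the fit of genes (0.32, adjusted p = 0.0574), while the mean of its features did (0.29, adjusted p = 0.0423). It also passed without wild type replicate 2 (0.0284) or knockout replicate 1 (0.048). The features of Mrpl10 and Mrpl12 had differences of opposite sign, none of which passed.

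The arrays differed among themselves in the level of the whole family. The mean over the 74 members was 7.29 to 7.43 in the wild type arrays and 7.47 to 7.69 in the knockout arrays, where the mean over all genes was 5.64 to 5.67 and 5.65 to 5.67. Knockout replicate 4 held the highest knockout value for 53 of the 74 members and replicate 1 the lowest for 47. In wild type, replicate 1 held the lowest value for 35 members and replicate 2 the highest for 31. Relative to the wild type mean of each gene, the median deviation was 0.11, 0.25, 0.19 and 0.32 in knockout replicates 1 to 4 and between -0.06 and 0.07 in wild type. Without knockout replicate 4, 21 members were called higher and 2 lower, against 12.8% and 8.99% of all genes (21.8% called). Without knockout replicate 1, 28 were higher and 1 lower, against 13.7% and 9.56% (23.2% called). The median over members was 0.19 and 0.25 in these.

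The other genes of mitochondrial translation were described from lists, with none of these counts a test of the list. In the fit of all genes, 16.1% of all genes and 27.9% of those above the median level were called higher (12.6% and 10.8% lower). The shares of all genes higher were 9.64%, 10.6% and 12.0% after quantile normalization, cyclic loess and centring. Without wild type replicate 2 the share was 14.6%. Of 3 further ribosomal proteins with other names, Dap3, the small-subunit GTPase, rose by 0.51 (SE 0.0847, adjusted p = 0.00238). Chchd1 (0.38, adjusted p = 0.0541) and Ptcd3 (0.12, adjusted p = 0.336) did not pass. Chchd1 passed without wild type replicate 2 (adjusted p = 0.0476), and the sign of Ptcd3 turned after quantile normalization and cyclic loess (-0.04 and -0.02). Of 23 assembly factors 6 rose (26.1%) and 1 fell (7 and 1 without wild type replicate 2), a share near that of genes above the median level. Among them Gtpbp10, a GTPase of large-subunit assembly, rose by 0.53 (SE 0.0824) and Ngrn by 0.70 (SE 0.118), while Mpv17l2, named because it was the only one that fell, changed by -0.52 (SE 0.132, adjusted p = 0.0166). After quantile normalization, cyclic loess or centring, 5 assembly factors were called higher and 1 lower in each.

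Translation factors rose in 6 of 14 (42.9%, all genes 16.1%) and fell in 0 by limma. At an unadjusted p under 0.05 the counts were 8 and 0, where 4080 of all 18820 genes were higher and 3913 lower. Mtif3, an initiation factor, rose by 0.60 (SE 0.107), and Taco1, an activator of cytochrome oxidase subunit translation, by 0.46 (SE 0.104), the latter not after quantile normalization (adjusted p = 0.0545). Mitochondrial tRNA synthetases and the related amidotransferase rose in 7 of 19 and fell in 0 (8 and 0 unadjusted), with Rars2 at 0.69 (SE 0.0926) and Gatb at 0.59 (SE 0.0921). Of 15 genes of mitochondrial DNA and RNA maintenance, 8 rose and 0 fell (9 and 0 unadjusted; 5 and 0 without wild type replicate 2, where Mgme1, Pnpt1 and Tefm were lost). Polg2, the accessory subunit of the mitochondrial DNA polymerase, rose by 0.91 (SE 0.0906), and Ssbp1, the single-stranded DNA binding protein, by 0.70 (SE 0.0838). After quantile normalization the counts higher in these lists were 2 translation factors, 3 synthetases and 3 maintenance genes, and after cyclic loess 3, 4 and 3.

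Import, carrier and matrix genes, taken as a view of mitochondria in general, had 5 of 18 higher (27.8%) and 0 lower by limma. The share higher was near the 27.9% of genes above the median level. At an unadjusted p under 0.05 the counts were 8 and 1, where 3453 of the 9410 genes above the median level were higher and 1326 lower. Without wild type replicate 2, 4 were called higher and 0 lower, a share of 22.2% higher. Of all genes, 23.9% at a level of 8 or more and 27.2% between 7 and 8 were then higher. Some of the 18 genes lay below 8. After quantile normalization 3 were higher and 1 lower, and after centring or cyclic loess 3 and 2. Hspa9, the matrix chaperone that pulls in precursors, rose by 1.21 (SE 0.102) and Vdac3, an outer membrane channel, by 0.80 (SE 0.0886). Among 9 regulators of nuclear genes for mitochondria 0 rose and 0 fell by limma (1 higher and 1 lower at an unadjusted p under 0.05). Gabpa, the DNA-binding part of an ETS family factor, had a difference of 0.22 (adjusted p = 0.0621), which passed without wild type replicate 3 (0.0473). Ppargc1b, a coactivator, had -0.36 (adjusted p = 0.0729), which was called lower after quantile normalization (-0.49, adjusted p = 0.0351), centring (0.0382) and cyclic loess (0.0462) and without knockout replicate 2 (0.0182). Genes encoded in mitochondrial DNA were not analysed here.

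The proteins of the cytosolic ribosome offer a comparison with the same kind of machine outside mitochondria. Of 70 such genes 37 rose (52.9%) and 1 fell on the deposited values, with a median difference of 0.24, as in the mitochondrial family. Of all genes tested 16.1% were called higher, and of those above the median level 27.9%. Without wild type replicate 2, 30 rose and 1 fell. After quantile normalization 26 of the 70 cytosolic genes rose, against 10 of the 74 mitochondrial ones, with medians of 0.19 and 0.08. After cyclic loess the counts higher were 28 and 12, and after centring 23 and 21. Of all genes 9.64%, 10.6% and 12.0% were higher after quantile normalization, cyclic loess and centring. The difference between the families was not tested.

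The promoters of 65 of the 74 members were found in the RefSeq table of GRCm38.p6, as 71 windows from 250 bases before to 50 bases after a gene start. Letters known from binding by factors that act on nuclear genes for mitochondria were searched on both strands. CCGGAAGT, recognised by ETS factors such as GABPA, was in 15.5% of the members' windows and in 3.89% of all 32851 windows of the table. AAGATGGC, recognised by YY1, was in 16.9% against 2.75%, and the palindromic motif of NRF1 in 4.23% against 0.971%. Matches to different motifs did not overlap in any member's window. The ETS letters were in 6 of 27 members called higher, 5 of 36 not called and 0 of 2 called lower; the YY1 letters were in 5, 6 and 1 of these. A match describes letters in a window and not a bound site. Of the 9 members called higher under all 4 scalings, 4 held the ETS letters, and these sequences are shown as examples of where the motif lies. The windows of Mrpl23, Mrps18b, Mrps23 and Mrpl40 held none of the 3 motifs. No match is given for Mrps28, and 9 of the 74 members had no window to search. Whether the motif goes with the size of a rise was not tested. Each sequence shown is given 5′ to 3′ on the gene's strand, with the motif or its reverse complement in capitals. The stretches of Mrps27, Mrpl48 and Mrpl27 end at the last base before the gene start; that of Mrpl33 runs 5 bases past it.
Mrps27: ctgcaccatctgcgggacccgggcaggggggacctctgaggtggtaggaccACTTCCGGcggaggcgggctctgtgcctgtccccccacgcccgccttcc
Mrpl48: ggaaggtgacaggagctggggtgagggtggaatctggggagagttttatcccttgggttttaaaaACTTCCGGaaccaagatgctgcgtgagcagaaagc
Mrpl27: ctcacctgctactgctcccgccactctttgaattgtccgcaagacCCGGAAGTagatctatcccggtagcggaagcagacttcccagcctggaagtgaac
Mrpl33: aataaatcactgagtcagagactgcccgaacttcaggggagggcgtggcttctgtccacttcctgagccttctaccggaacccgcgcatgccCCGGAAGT

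The stretch of Mrps27 lies at chr13:99344686-99344785 on the plus strand, with its motif beginning 49 bases before the gene start. That of Mrpl48 lies at chr7:100583131-100583230 on the minus strand, with the motif 35 bases before the start. For Mrpl27 the stretch is chr11:94653691-94653790, plus strand, with the motif 55 bases before the start. For Mrpl33 it is chr5:31613856-31613955, plus strand, and the motif begins 3 bases before the start. These genes rose by 0.84, 0.72, 0.57 and 0.56 as given above. The window of Mrps27 also held the YY1 letters, 15 bases after the start, and that of Mrpl42, which fell, held them 28 bases after it.

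Other cell types could contribute to these bulk values, in which fewer cells of a type and less RNA per cell cannot be told apart. Of all genes 16.1% were called higher and 12.6% lower. At an unadjusted p under 0.05, 4080 of all 18820 genes were higher and 3913 lower. Acinar markers had 3 of 6 lower and 0 higher (limma; 4 and 0 at an unadjusted p under 0.05), and 2 lower after quantile normalization, 5 after centring and 3 after cyclic loess. The list means were 12.58 to 12.76 in wild type and 12.31 to 12.38 in knockout. Bhlha15 fell by 0.76 (SE 0.084) and Cela1 by 0.56 (SE 0.0746). Endothelial markers had 3 of 6 higher and 0 lower (4 and 0 unadjusted), and 1 higher after quantile normalization or cyclic loess or without wild type replicate 2, with means of 6.80 to 7.06 and 7.13 to 7.33. Esam rose by 0.54 (SE 0.0985) and Pecam1 by 0.47 (SE 0.136), the latter not after quantile normalization or cyclic loess (adjusted p = 0.0935 and 0.0982). Pecam1 also missed the threshold without any 1 of wild type replicates 1 and 2 (0.0714 and 0.0556) and of the knockout replicates (0.0504 to 0.0726). Muscle markers had 2 of 6 higher (after quantile normalization 2 higher and 1 lower, after centring 1 and 1). Their list means were 4.89 to 5.13 in wild type and 5.03 to 5.22 in knockout. The 2 were Actg2 (0.42, from 3.96 to 4.38) and Cnn1 (0.26, from 3.12 to 3.38), both below the median of every array. The call of Cnn1 did not hold without wild type replicate 1, 3 or 4 or knockout replicate 2, 3 or 4 (adjusted p = 0.0523 to 0.103).

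Among islet markers 1 of 9 rose, Ppy, chosen for mention after its values were seen (0 after each rescaling), and 2 fell, Pdx1 (-0.75, SE 0.123) and Mafa (-0.45, SE 0.117), with means of 7.40 to 8.39 and 7.34 to 8.45. Of 6 duct markers 0 rose and 1 fell (2 and 1 at an unadjusted p under 0.05), with a median difference of 0.25 and list means of 7.22 to 7.58 and 7.06 to 7.22. The one that fell was Muc1 (-2.39, SE 0.244), from 11.29 to 8.90, and this gene lowered the knockout list means. Krt19, Krt7, Cftr and Slc4a4 had differences of 0.25 to 0.37 that did not pass, and Sox9 had -0.32 (adjusted p = 0.382). Macrophage markers (9 genes; means of 6.17 to 8.45 and 7.35 to 8.28), stellate cell and fibroblast markers (8; 7.10 to 8.65 and 7.88 to 8.65) and adipocyte markers (5; 4.07 to 4.31 and 4.27 to 4.44) had 0 called by limma, with 0, 1 and 1 at an unadjusted p under 0.05. Without wild type replicate 2, 2 macrophage markers (Cd14 and Lyz2) and 2 stellate cell and fibroblast markers (Acta2 and Col1a1) were called lower. Acta2 (-0.51, adjusted p = 0.0965) was also called lower after quantile normalization (0.042). Of 8 lymphocyte markers Cd8a was called lower (-0.49, SE 0.162), at means of 4.03 to 4.66 and 4.04 to 4.47. Leaving out wild type replicate 1 (adjusted p = 0.091) or any knockout replicate (0.085 to 0.104) ended that call, as did quantile normalization (0.0762) and cyclic loess (0.091). Without wild type replicate 2, Cd3e was called lower too. The part of these cell types in the members' differences was not tested.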

How the data were processed

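Total RNA of 8 pancreas samples was profiled on whole-transcript arrays from 100 ng of RNA. Per the submitters' processing notes, the authors made the deposited log2 values with RMA, a method that summarises probes on a log scale. Neither its version nor the log base is given in the sources used here; base 2 is taken from the method and the range of values. Of 35556 features, GEO's platform annotation gave 1 symbol to 21218, several to 1881 and none to 12457; the RefSeq table of GRCm38.p6 held 21185 of the identifiers and changed 0 symbols. Where a gene had more than 1 feature, only the feature of highest mean signal across all arrays entered the fit (2398 left out). Genotype was fitted over 18820 genes with limma 3.58.1 in R 4.3.3 (lmFit, eBayes, 6 residual degrees of freedom), with Benjamini-Hochberg adjustment over all of them and a threshold of 0.05; errors are moderated standard errors. The computation was tested on simulated data. The number of arrays limits the precision.

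Members and lists were chosen with earlier results of these data known. Structural roles and list members come from general knowledge; kinase and other non-ribosomal symbols were left out of the cytosolic set. Named genes were Sel1l, the 15 largest called rises and all called falls, the 2 smallest p-values per structural site and list, the Mrps18 relatives, the 3 members nearest 0, members whose features disagreed and the further ribosomal proteins; other genes are given for completeness of the family. Alternatives were 3 rescalings, genes above the median level only, the mean of features, every feature by itself, trend and robust variance, array weights, a replicate block, and each array left out in turn. Same-numbered arrays were not paired, since their deviations correlated at 0.22, 0.15, -0.27 and -0.02. Plots were made in Python 3.11.15 (matplotlib 3.10.9).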

Additional observations from a re-analysis of the deposited data

Results flagged for a closer look

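Among 58 groups of 4 arrays examined for a far sample, 4 held one, where chance gives about 1 in 20. Sel1l was lowest in knockout replicate 4, at 11.45 against 11.66 to 11.70 in the other knockout arrays. The same array held the highest values of Mrps28, 7.61 against 7.40 to 7.43, and of Mrps18c, 8.17 against 7.93 to 7.96. Mrpl35 was highest in wild type replicate 1, at 7.82 against 7.70 to 7.71.

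Features that name a mitochondrial ribosomal protein gene together with another gene were outside the comparisons. Of 9 such features, that of Rrnad1 and Mrpl24 was higher in knockout by 0.79 and that of Mrpl48 and Rab6a by 0.58. In both, every knockout array lay above every wild type array. That of Gcfc2 and Mrpl19 was higher by 0.55 (limma adjusted p = 0.03, every feature tested by itself), with groups that overlapped. The feature of Mrpl19 alone had 0.09 (adjusted p = 0.449). The other shared features did not pass. Which of the genes a shared feature reads cannot be told apart.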

How the results depend on the processing

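On the deposited values 32 members were called, 30 higher and 2 lower, with a median difference of 0.24. Quantile normalization gave 17 called (10 higher, 7 lower; median 0.0778) and cyclic loess 19 (12 and 7; median 0.10). Leaving out each array in turn gave 23 to 31 called, 21 to 30 higher, 1 to 2 lower and medians of 0.16 to 0.25, while 11.7% to 15.2% of all genes were higher. The count higher stayed within 1.5 times 30 under every other alternative, from 21 to 33. With the replicate number as a block, 25 were higher and 1 lower, against 14.2% and 10.6% of all genes (24.9% called). Of the 30 rises 24 were still called; among those lost was Mrps18a (adjusted p = 0.0654). Mrps21 also missed the threshold (0.0626) and Mrps5 passed it (0.0353). The cause of these changes was not tested. The difference of Mrps36 was 0.0110 after cyclic loess, where it was below 0 as deposited. The differences of Mrpl12 turned to -0.0750 with quantile normalization, -0.0353 with centring, -0.0930 with cyclic loess and -0.0467 with averaged features, and spanned -0.0629 to 0.107 with arrays left out. Those of Mrpl28 turned to -0.0877, -0.00970 and -0.0758 with the 3 rescalings and spanned -0.00721 to 0.167 with arrays left out. Mrps30 turned to -0.0794 with averaged features, and Ptcd3 to -0.0384 with quantile normalization and -0.0212 with cyclic loess. Sel1l kept its direction and its call under all of them.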
